A study of Homo sapiens with 12 samples.

Results

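The comparison sets 3 arrays of HuH-7 cells given a miR1908-5p mimic against 3 arrays of cells given the matching mimic control, picked by their sample titles out of the 12 arrays of the series. HuH-7 is a hepatoma line derived from human hepatocytes. All cultures were kept in low glucose medium with serum, transfected for 72 h with 9 nM of oligonucleotide by the sample labels (the methods state a slightly different concentration), and lysed for total RNA. The mimic control was coupled to the dye Dy547. The sources used here name no dye on the mimic, so whether the groups differ in the dye as well as in the miRNA sequence is not known. The other 6 arrays came from cultures with a miR1908-5p hairpin inhibitor or with its Dy547-coupled control, 3 arrays each. All 4 treatments were repeated on 3 distinct occasions. The repeat number of an array names its occasion, so each mimic array has a control array of the same occasion. Cultures of a single line were used, and the spread given below is that between these cultures.

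A miRNA mimic is a synthetic duplex that supplies the mature strand of a miRNA to the Argonaute proteins of the cell. The loaded strand pairs with messenger RNAs, mostly in the 3′ untranslated region and mostly through its seed near the 5′ end, and paired messengers are translated less and degraded faster. Transcripts that are not paired can change as well, as later effects of those that are. MIR1908 lies within the fatty acid desaturase locus of chromosome 11, in an intron of FADS1. The mature strand that the mimic supplies is printed first, since its seed (bases 2 to 8, in capitals) sets which messengers it can pair with, and the other 3 human miRNAs with the same seed follow. The 3p strand of the same hairpin, with its own seed in capitals, comes last. Sequences are from RefSeq (GRCh38.p14), 5′ to 3′.
hsa-miR-1908-5p: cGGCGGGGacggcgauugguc
hsa-miR-6787-5p: uGGCGGGGguagagcuggcugc
hsa-miR-663a: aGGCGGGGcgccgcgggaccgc
hsa-miR-10396b-5p: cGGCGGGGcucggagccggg
hsa-miR-1908-3p: cCGGCCGCcggcuccgccccg
The mature miR-1908-5p lies at chr11:61815209-61815229 on the minus strand. Of its 21 bases 16 are G or C, and 4 of 2545 mature miRNAs in the RefSeq table carry its seed.

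The 12 arrays had median log2 values of 4.99 to 5.15, and 53617 probe sets were tested. The SD across probe sets was 1.95 and 1.98 in the mimic and control arrays of repeat 3 and 2.02 to 2.06 in the other arrays, so results are given with and without repeat 3 where they depend on it. A difference of 1 on the log2 scale is a 2-fold change. In limma 8 probe sets passed an adjusted p under 0.05 between mimic and mimic control (0.0149%), 3 lower (0.0056%) and 5 higher (0.00933%). With the repeat number as a block 24 passed (0.0448%), 9 lower (0.0168%) and 15 higher (0.028%), and these 24 held the 8. Of the 24, 14 carried 1 symbol, 8 had no name, and a pair shared by NSF and its pseudogene NSFP1 held equal values. At an unadjusted p under 0.05 were 2474 probe sets (4.61%, of which 2.41% lower and 2.2% higher) without the block and 4154 (7.75%, of which 4.26% lower and 3.49% higher) with it. The groups did not overlap for 4751 probe sets (8.86%), 2478 lower (4.62%) and 2273 higher (4.24%). When any repeat was left out no probe set passed the adjusted threshold in either fit, while 2338 were at an unadjusted p under 0.05 without repeat 3. Of the 24 calls 22 lay among the 13404 brightest probe sets, above a mean log2 value of 6.33.

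By the adjusted threshold of limma with the block, the named genes that fell in mimic-treated cells were ILK, CNN2, DDA1, AATF, FKBP8, WIPF3 and NKIRAS2, and 2 unnamed probe sets fell as well. ILK encodes the integrin-linked kinase that joins integrins to the actin cytoskeleton. Its log2 values were 7.68, 7.90 and 7.45 in the mimic arrays of repeats 1 to 3 and 9.29, 9.04 and 9.11 in the control arrays, and the lowest control array lay more than a log2 unit above the highest mimic array. ILK fell by 1.47 (standard error 0.13, adjusted p = 0.0159 with the block in limma). CNN2 encodes calponin 2, which binds actin filaments, and stood at 8.98, 9.15 and 8.45 against 10.52, 10.38 and 9.89. It fell by 1.40 in limma (standard error 0.13 with the block and 0.22 without), and its adjusted p was 0.0159 with the block and 0.135 without it. In both groups the repeat 3 array was the lowest for CNN2. WIPF3, of the family that binds WASP proteins in actin assembly, stood at 6.52, 6.44 and 5.89 with the mimic and 7.36, 7.34 and 6.93 with the control. It fell by 0.93 in limma with the block (adjusted p = 0.033). Without the block WIPF3 had an adjusted p of 0.687, the highest in limma among the 7 named genes that fell, and its groups did not overlap.

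The other genes that fell are known for roles other than actin binding. AATF, a nuclear factor of transcription and early ribosome assembly, stood at 6.97, 7.39 and 6.61 with the mimic and 8.74, 8.50 and 8.34 with the control. The difference was -1.77 in repeat 1, -1.11 in repeat 2 and -1.73 in repeat 3. DDA1, a component of cullin ubiquitin ligases, stood at 8.48, 8.71 and 8.36 against 9.88, 9.73 and 9.45, and its groups did not overlap. FKBP8, an immunophilin anchored in the outer mitochondrial membrane, stood at 7.20, 7.97 and 7.72 against 9.12, 9.08 and 8.88. Its mimic arrays ranged more widely than its control arrays and did not overlap them. NKIRAS2, a small Ras-like protein that binds inhibitors of NF-kB, stood at 6.35, 6.53 and 5.94 against 7.56, 7.26 and 7.08 and fell by 1.03 (adjusted p = 0.0492 in limma with the block). Among all probe sets past the adjusted threshold the largest difference was -2.11, in an unnamed probe set (ID 16771489) that stood at 4.79 ± 0.64 with the mimic and 6.90 ± 0.48 with the control (SD, n = 3 each).

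The genes that rose with the mimic by the same measure were KLF2, UHMK1, NSF, FST, MT1H, TPD52L2 and ANKRD1, with the NSFP1 and NSF pair and 6 unnamed probe sets. KLF2, a zinc finger transcription factor best known from endothelial cells under flow, had the largest difference among named probe sets past the adjusted threshold. It stood at 11.41, 10.92 and 10.44 in the mimic arrays of repeats 1 to 3 and at 8.94, 9.20 and 8.63 in the control arrays. It rose by 2.00, about 4 times (standard error 0.18, adjusted p = 0.0159 with the block in limma). Without the block its adjusted p was 0.114 and its standard error 0.31. The groups were more than a log2 unit apart. UHMK1, a kinase that phosphorylates splicing factors, rose by 1.46 (adjusted p = 0.0159 in limma with the block), from 7.14, 6.85 and 6.78 to 8.85, 8.40 and 7.90. FST, the secreted activin antagonist follistatin, stood at 8.04, 8.22 and 8.23 against 6.73, 6.98 and 6.94 and passed in limma with and without the block (adjusted p = 0.0221 and 0.0302). MT1H, a metallothionein, rose by 1.46 (adjusted p = 0.0221 with the block in limma). NSF, which disassembles SNARE complexes with the energy of ATP once membranes have fused, stood at 9.57, 9.70 and 9.69 against 8.44, 8.52 and 8.37, with SDs of 0.07 and 0.08 (n = 3 each). TPD52L2, a coiled-coil protein of vesicle traffic, stood at 8.14, 8.39 and 8.31 against 7.35, 7.42 and 7.31, and ANKRD1, an ankyrin repeat protein of the nucleus and of muscle sarcomeres, at 9.84, 8.96 and 9.81 against 8.33, 7.91 and 8.49. For none of these 7 genes did a control array reach the lowest mimic array.

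**Figure D1:**
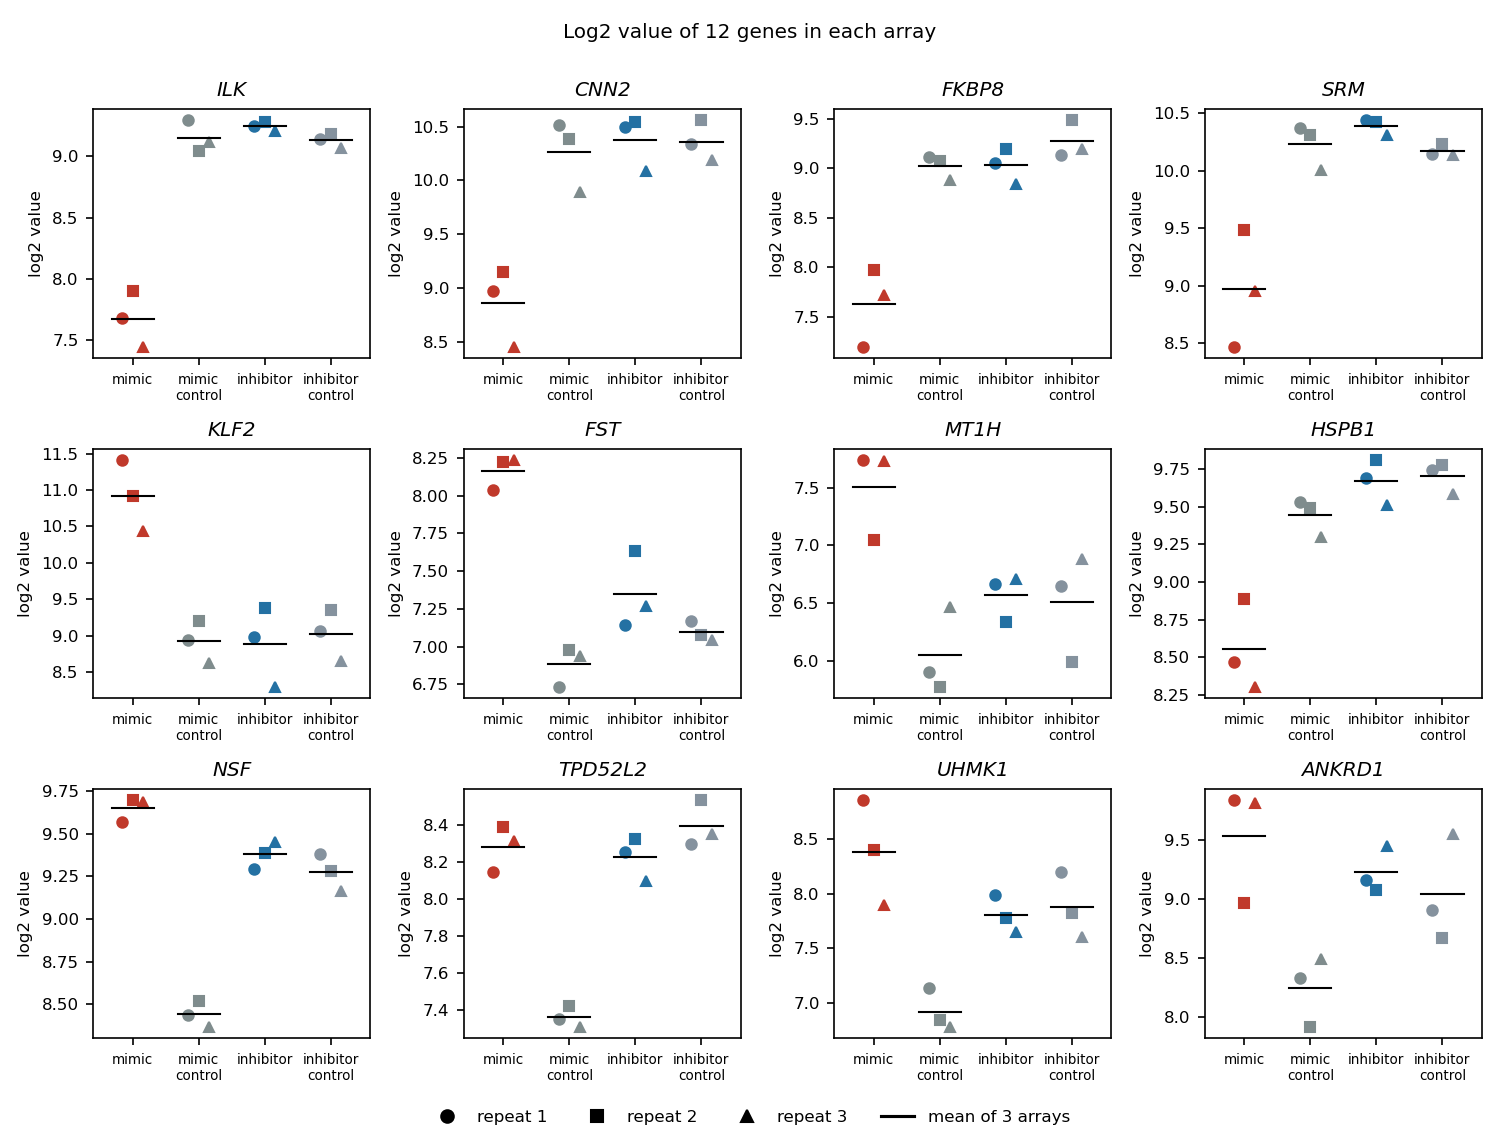
Log2 value (vertical axis, a separate range in each panel) of 12 genes in the 3 arrays of each of the 4 groups, with a marker shape for each repeat and a line at the group mean. The mimic arrays stand alone for ILK, CNN2, FKBP8, SRM, KLF2 and HSPB1, while for NSF, TPD52L2, UHMK1 and ANKRD1 the mimic control arrays are the lowest of the 12.

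The inhibitor arms, which share occasions and the cell line but neither mimic nor mimic control, give the level of a gene without either oligonucleotide. They carry the miR1908-5p inhibitor or its own Dy547-coupled control, so their mean is not the level of untreated cells. For all 9 probe sets that fell in the block fit the mean of the inhibitor arms lay nearer the mimic control than the mimic, with a median of -1.51 for mimic minus inhibitor arms and -0.04 for mimic control minus inhibitor arms. For 12 of the 15 that rose it lay nearer the mimic, with medians of 0.19 and -0.89. Over all probe sets lower with the mimic the inhibitor arms were nearer the mimic for 13354 of 27097, and over all those higher for 11879 of 26520. These contrasts share the mimic and control arrays with the comparison itself, so they describe the calls and are not a second test of them. ILK had means of 9.24 and 9.13 with the inhibitor and its control, against 9.15 with the mimic control. KLF2 stood at 8.98, 9.38 and 8.30 with the inhibitor and 9.06, 9.35 and 8.66 with its control, all below its lowest mimic array. FST had means of 7.35 and 7.10 in the inhibitor arms and MT1H of 6.57 and 6.51, in both genes between the mimic control and the mimic and nearer the control. NSF, with means of 9.38 and 9.27, TPD52L2, with 8.23 and 8.39, UHMK1, with 7.80 and 7.87, and ANKRD1, with 9.23 and 9.04, stood nearer the mimic. SNORA2A, a small nucleolar RNA that guides pseudouridylation, and MLEC, a lectin of the endoplasmic reticulum, had differences of 1.43 and 1.05 between mimic and control. SNORA2A stood at 7.15, 6.54 and 6.87 with the mimic, 5.55, 5.29 and 5.44 with the control and 6.66 to 7.66 in the inhibitor arms. The mimic was thus the group set apart for ILK, CNN2, FKBP8 and KLF2, and the mimic control the group set apart for NSF, TPD52L2 and SNORA2A, which the difference between the 2 groups alone does not show.

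**Figure D2:**
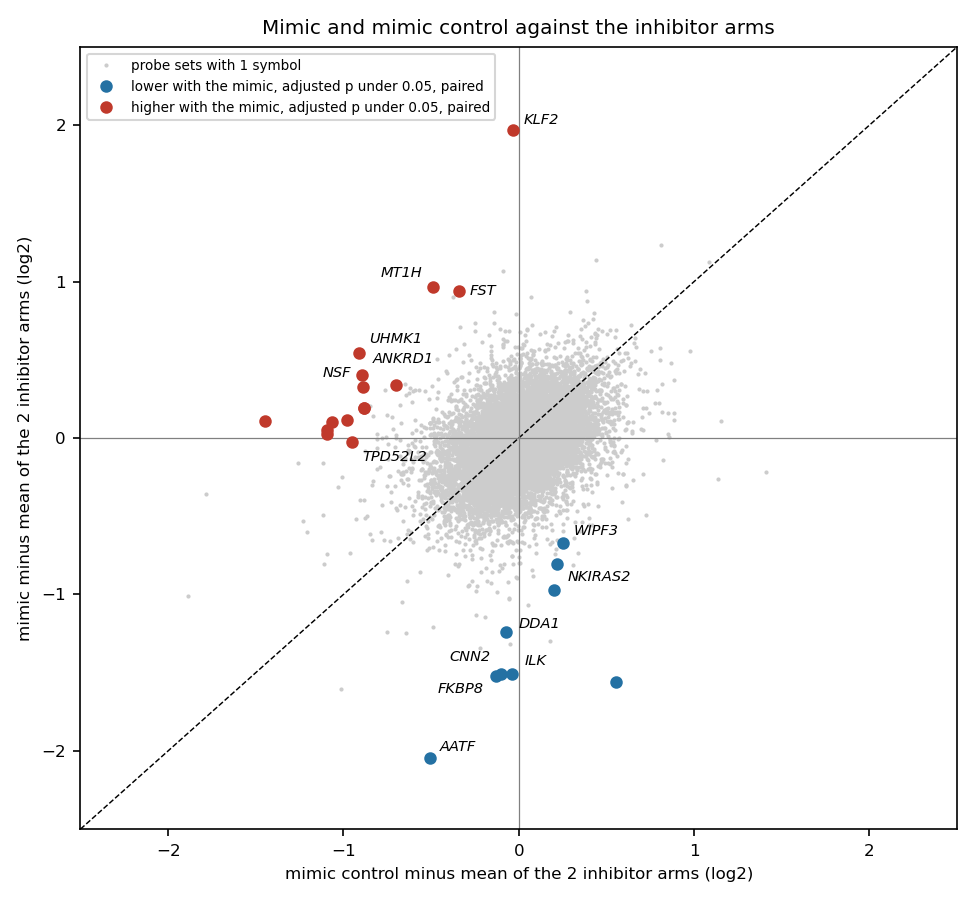
Mimic minus the mean of the 2 inhibitor arms (vertical axis, log2) against mimic control minus the same mean (horizontal axis, log2), with probe sets of 1 symbol in grey and the 24 calls of the block fit in colour. The 9 lower calls lie at -0.67 or below on the vertical axis and between -0.51 and 0.55 on the horizontal one, and 12 of the 15 higher calls lie nearer 0 on the vertical axis than on the horizontal one.

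Probe sets listed in the study as changed by the mimic in primary hepatocytes were selected on arrays of those cells. The study reports most of them as suppressed there, and the direction of each was not compared here. All 49 are on the HuH-7 arrays, where 42 were lower with the mimic, 28 at an unadjusted p under 0.05 without the block and 32 with it, where 2.41% and 4.26% of all probe sets were lower. The median difference was -0.53, against 0.00 over all probe sets. Of the 49, 37 carried 1 symbol, and 31 of these were lower in all 3 repeats, where 20.8% of all named genes were. Repeat 2 gave the smallest difference for 27 of the 31, and the median of the 37 was -0.72 in repeat 1, -0.40 in repeat 2 and -0.73 in repeat 3. Of the 24 with 1 symbol that were lower at an unadjusted p under 0.05, the inhibitor arms lay nearer the mimic control for 22.

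Members of this list served several functions. SRM, which makes spermidine from putrescine, stood at 8.47, 9.48 and 8.95 with the mimic and 10.37, 10.31 and 10.01 with the control, groups that did not overlap (difference -1.27, adjusted p = 0.109 in limma with the block). HSPB1, a small heat shock protein that also binds actin, stood at 8.47, 8.89 and 8.30 against 9.53, 9.49 and 9.30, and CLSTN1, a calsyntenin that links cargo to kinesin, at 7.26, 7.53 and 7.05 against 8.60, 8.42 and 8.19. Both missed the adjusted threshold in limma with the block (adjusted p = 0.0661 and 0.0552), with no overlap between groups. Proteins of the secretory route were SEC11A, a catalytic subunit of signal peptidase, with a difference of -0.65 (standard error 0.15), the signal recognition particle receptor SRPRA at -0.42 (standard error 0.13), the convertase FURIN at -0.75 (standard error 0.21) and POGLUT3, a glucosyltransferase, at -0.48 (standard error 0.20). The proton channel subunit ATP6V0C of the vacuolar ATPase had a difference of -0.77 and ATP5F1D of the mitochondrial ATP synthase one of -0.92, and in both the mimic array of repeat 2 overlapped the control of repeat 3. The tyrosine kinase ABL1 had a difference of -0.61, the recycling endosome GTPase RAB11B one of -0.59, the adaptor CMIP one of -0.97, the methyltransferase CARM1 one of -0.37 and FAM222B one of -0.53. CYP2B6, a drug-oxidizing cytochrome, stood at 5.67, 6.13 and 4.49 with the mimic and 7.31, 6.86 and 6.54 with the control. CREB3L3, a membrane-bound factor that controls lipid genes in liver, stood at 9.62, 9.51 and 7.94 against 10.57, 10.24 and 9.90. For both of these the mimic array of repeat 3 was the lowest of the 6, and without repeat 3 the differences were -1.18 and -0.84.

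**Figure D3:**
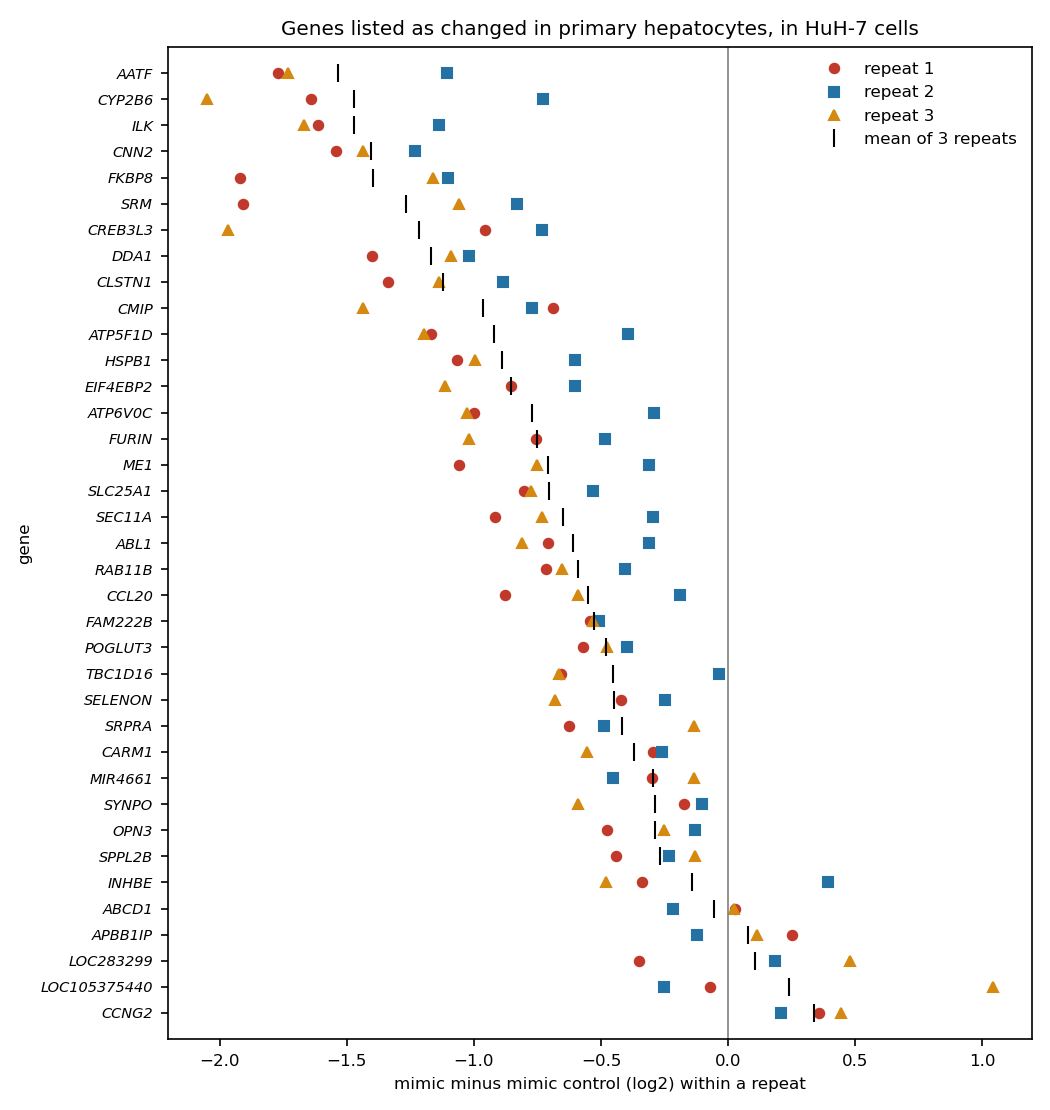
Mimic minus mimic control (horizontal axis, log2) within each repeat for the 37 genes with 1 symbol that the study lists as changed in primary hepatocytes, ordered by their mean, which is the black tick. In 31 of the 37 all 3 repeats lie below 0, and in most of these the square of repeat 2 lies nearest to it.

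Genes were also grouped in lists by function, and a list is given by how many of its named members were at an unadjusted p under 0.05 and by its median difference. For the 15024 named genes as a whole those shares were 3.22% lower and 2.42% higher without the block (5.64% in all) and 5.98% lower and 3.77% higher with it (9.76% in all), with a median of -0.03. Groups did not overlap for 5.97% of named genes on the lower side and 4.61% on the higher side. Of the named probe sets, 153 owe their name only to the study's own listings of changed probe sets, partly drawn from these arrays. A list that holds such members can show a raised count for that reason, and its count is not comparable with these shares. Focal adhesions join integrins to actin through ILK and its partners. Of 25 named members of focal adhesion and actin linkage, 5 were lower and 1 higher. Their median was -0.02 and their mean -0.16, and 13 members had a negative and 12 a positive difference. Besides ILK and CNN2 the lower ones were CDC42EP1, ACTN1 and SYNPO. Members were chosen with earlier results known, and ILK, CNN2 and SYNPO are among the probe sets that the study lists in hepatocytes. The count of 5 lower is therefore no separate result about focal adhesion genes. CDC42EP1, an effector of CDC42, was lower by 0.60 (standard error 0.15), with values of 6.22, 6.35 and 6.04 against 6.84, 6.72 and 6.84. FERMT1, the integrin activator kindlin-1, had a difference of -0.74 with overlapping groups, and it was lower in each repeat, at 6.93, 7.63 and 6.63 against 7.70, 8.26 and 7.44. SYNPO, an actin-bundling protein that the study also lists in hepatocytes, had a difference of -0.29. Without repeat 3 the difference of SYNPO was -0.14 (unadjusted p = 0.352 in limma without the block). The partners of ILK in its complex did not pass either threshold in either fit, with differences of 0.04 for the LIM adaptor LIMS1, 0.18 for LIMS2 and 0.20 for RSU1 (chosen after their values were seen).

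Serum response factor and the coactivator YAP switch on genes when actin filaments assemble. Of 13 named target genes 4 were higher at an unadjusted p under 0.05 and none lower, in both fits, with a median of 0.27. KLF2 and ANKRD1 are given above, and members were chosen with earlier results known. For ANKRD1 the inhibitor arms lay nearer the mimic than the mimic control. KLF6, a factor related to KLF2, stood at 9.38, 8.85 and 8.87 with the mimic and 8.65, 8.45 and 8.26 with the control, a difference of 0.57 (standard error 0.17) with no overlap. Its means with the inhibitor and its control were 8.43 and 8.43, at the level of the mimic control. SRF itself, with a difference of 0.31, was the remaining one. CCN2, a secreted matricellular protein and a standard YAP target, had a difference of 0.36 (standard error 0.30), and both groups lay below the inhibitor arms, with means of 9.41 and 9.04 against 9.99 and 9.86. The immediate early genes FOS and EGR1 had differences of 0.18 and 0.26 and passed neither threshold (chosen after their values were seen).

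Metallothioneins hold zinc and copper ions on their many cysteines, and their genes are switched on by MTF1 through metal response elements. Of 11 named members, 7 were higher at an unadjusted p under 0.05 without the block and 8 with it, and none lower, with a median of 0.53. The medians of the 3 repeats were 1.03, 0.57 and 0.29. MT1H stood at 7.74, 7.05 and 7.73 with the mimic and 5.90, 5.78 and 6.47 with the control. MT1M stood at 9.57, 9.45 and 8.94 against 8.17, 8.65 and 8.20, with a difference of 0.98, and MT1X at 11.63, 11.46 and 11.05 against 10.46, 10.82 and 10.15, with one of 0.90, both with no overlap. MT1G had a difference of 0.90 and overlapping groups, and MT2A had one of 0.41. Relative to the inhibitor arms the median of the list was 0.30 for the mimic and -0.19 for its control. The members are near-identical copies that can share signal, so their values need not be separate. The 30-base stretch with the most metal response cores is shown for the promoters of MT1H and MT2A and for MT1X, where the core (TGCACNC or TGCGCNC, either strand, in capitals) can be compared, from RefSeq (GRCh38.p14).
MT1H: ccgcgGTGTGCAccgaccTGCGCTCagggt
MT2A: gcccGTGTGCAgagccgggTGCGCCCggcc
MT1X: caggccccgcggTGCGCCCggcgctgggct
These lie at chr16:56669636-56669665, chr16:56608412-56608441 and chr16:56682308-56682337, all on the plus strand. In the 300 bases around the start the MT1H and MT2A promoters each held 8 cores, overlapping ones included, the MT1X promoter held 4, and those of MT1B and MT4, the other members matched, held 3 each. Of 27305 promoters of the same length 0.022% held 8 or more, 0.593% held 4 or more, 2.27% held 3 or more and 29.3% held at least 1. The match describes the letters of the promoter only.

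Activins and BMPs signal through SMAD proteins, and follistatin binds activins outside the cell. Of 28 named members of this signalling, 2 lower and 4 higher passed the unadjusted threshold, with a median of 0.07. The ligand BMP2 stood at 9.31, 8.88 and 8.64 with the mimic and 8.21, 7.97 and 8.21 with the control, and its inhibitor arms ranged from 7.87 to 8.77, which overlaps both. The iron hormone hepcidin (HAMP), a gene that BMP signalling switches on, stood at 7.22, 7.29 and 6.75 against 6.43, 6.63 and 6.59, with no overlap and a difference of 0.54, or 0.73 without repeat 3. SKI, a repressor of SMAD proteins, stood at 6.22, 6.22 and 5.28 against 6.86, 6.87 and 6.65, where repeat 3 gave the largest difference. None of these 3 passed the adjusted threshold in limma with the block (adjusted p = 0.278, 0.358 and 0.199).

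Chemokines and other targets of NF-kB had more lower than higher members. Of 16 named members, 4 were lower and 1 higher at an unadjusted p under 0.05 without the block, and 7 and 1 with it, with a median of -0.20. Without repeat 3 the counts without the block were 2 lower and 1 higher. UBD, a ubiquitin-like modifier induced by cytokines, had the largest negative difference among named genes whose groups did not overlap, -1.63, with values of 4.86, 3.18 and 3.43 with the mimic and 6.15, 5.15 and 5.06 with the control. Its inhibitor arms lay at 3.06 to 4.62, overlapping the mimic arrays and below every control array. CXCL10, an interferon-induced chemokine, stood at 6.05, 5.53 and 5.15 against 8.13, 6.65 and 5.10, and the difference came from repeats 1 and 2. The adhesion receptor ICAM1 had a difference of -0.61 with no overlap. CXCL5, which attracts neutrophils, was the member that was higher, at 8.88, 9.34 and 9.41 against 8.56, 8.22 and 8.22. Both groups lay below the inhibitor arms for CXCL5, which ranged from 9.85 to 10.48. Among 15 named genes of interferon response and sensing of double-stranded RNA, MX2, an interferon-induced GTPase, was lower at an unadjusted p under 0.05, by 0.55 with no overlap (standard error 0.14), and none was higher. IFIT1 had a difference of -0.43 at a level of 2.82 to 3.77.

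Chromatin regulators had more lower than higher members as well. Of 52 named members, 8 were lower and 3 higher at an unadjusted p under 0.05, and 40 had a negative difference, with a median of -0.12. Without repeat 3 the counts were 2 lower and 2 higher and the median -0.08. TET1, which oxidizes methylated cytosine, had a difference of -0.50, and its inhibitor arms lay at 7.11 to 7.63, all below the control arrays. Without repeat 3 the difference of TET1 was -0.35 (unadjusted p = 0.106 in limma without the block). SETD7, a lysine methyltransferase, was higher by 0.56, at 8.05, 7.92 and 8.29 against 7.52, 7.36 and 7.70. FK506-binding immunophilins had 5 named members, all with a negative difference, of which FKBP8, FKBP7 at -0.42 and FKBP15 at -0.39 were at an unadjusted p under 0.05. FKBP5, which glucocorticoids induce, had a difference of -0.25 and did not pass. Without repeat 3 FKBP8 alone of the 5 was at an unadjusted p under 0.05, with FKBP7 at -0.38 and FKBP15 at -0.22.

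The study tabulates only the highest-ranked of its TargetScan predictions for the miRNA, a small extract of a much longer list that was not analysed here. Of the 12 named members of this extract FKBP8 and STK11 passed the unadjusted threshold, both lower, and the median of the 12 was -0.06. STK11 encodes the kinase LKB1, which activates AMPK, and stood at 6.85, 7.11 and 6.81 with the mimic and 7.45, 7.46 and 7.15 with the control. The groups did not overlap, and the inhibitor arms ranged from 7.25 to 7.70. CRTC1, a coactivator of CREB, had a difference of -0.27 and overlapping groups, and RENBP, which binds renin, one of -0.33 that was -0.03 without repeat 3. Of 18 named genes of the LKB1 and AMPK pathway, from a list of 26, 2 were lower and 2 higher. The 2 higher, PRKAA2 and PRKAB2, were named only through the study's own listings of changed probe sets. SIK2, a kinase that LKB1 activates, stood at 8.51, 8.41 and 7.93 against 9.25, 8.84 and 8.59 with inhibitor arms at 8.20 to 8.62, overlapping both groups. PRKAA2 and PRKAB2, a catalytic and a regulatory subunit of AMPK, had differences of 0.70 and 0.47, larger without repeat 3 at 0.90 and 0.61. Of 18 named genes of insulin and mTOR signalling 3 were lower and 1 higher. EIF4EBP2, a repressor of cap-dependent translation, stood at 10.41, 10.39 and 9.67 against 11.26, 10.99 and 10.79, and PIK3R2, a regulatory subunit of PI3 kinase, at 7.17, 7.33 and 6.88 against 8.05, 7.90 and 7.38. IRS1 and IRS2, which carry the signal of the insulin receptor, had differences of opposite sign, -0.44 and 0.41 (standard errors 0.20 and 0.17). These were uneven across repeats 1 to 3, at -0.72, -0.08 and -0.50 for IRS1 and 0.43, 0.71 and 0.08 for IRS2. IRS2 stood at 3.79 to 4.72 in these arrays, below the median level of all probe sets (5.03). ME1, the cytosolic malic enzyme, was the 1 of 5 named NADPH-forming enzymes at an unadjusted p under 0.05, with a difference of -0.71 and overlapping groups, and PGLS had a difference of -0.36. Without repeat 3 ME1 was at -0.68 (unadjusted p = 0.0761 in limma), and none of the 5 passed. ME1 and PIK3R2 were also named only through the study's own listings of changed probe sets.

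Vesicle fusion genes lay on both sides of 0. Of 23 named members 2 were lower and 2 higher at an unadjusted p under 0.05, with a median of -0.01. Of 24 named genes of targeting to the endoplasmic reticulum and signal cleavage, SEC11A was lower and none higher without the block. SRPRA, given above with a difference of -0.42, was not counted in this list. The GTPase RAB8A, which carries cargo to the cell surface, stood at 9.35, 9.56 and 9.04 with the mimic and 10.26, 10.08 and 9.77 with the control. Apart from SRM, none of the 16 named genes of polyamine metabolism was at an unadjusted p under 0.05 without the block. ODC1, the first enzyme of the pathway, had a difference of 0.30 and was higher in each repeat, and SAT1, which acetylates spermidine for export, had one of -0.22. In the cholesterol list 14 of 18 named genes had a positive difference, as 6719 of the 15024 named genes did, with 2 higher without the block and 6 with it, and 11 were higher in all 3 repeats, where 14.9% of all named genes were. STARD4, a carrier of sterols, stood at 9.94, 9.82 and 9.35 against 9.27, 9.20 and 8.95, and TM7SF2, a sterol reductase, and INSIG1, which holds the sterol sensor in the endoplasmic reticulum, had differences of 0.53 and 0.49. INSIG1 lay lowest in repeat 3 in both groups, and its standard error was 0.40 without the block and 0.11 with it.

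Of 21 named plasma and acute phase proteins, 3 were higher and none lower without the block, and 6 were higher and 2 lower with it. Besides HAMP the members higher in both were APOA2, an apolipoprotein, at 12.60, 12.68 and 12.56 with the mimic and 12.26, 12.17 and 12.35 with the control, and the fibrinogen chain FGB, at 12.52, 12.17 and 12.17 against 12.07, 11.78 and 11.76. The 2 lower were haptoglobin (HP), which binds free haemoglobin, and orosomucoid ORM2. HP stood at 6.64, 7.44 and 5.53 with the mimic and 7.73, 8.33 and 6.20 with the control, with differences of -1.10, -0.89 and -0.68 in repeats 1 to 3, while the control arrays alone ranged from 6.20 to 8.33. Of 17 named hepatocyte markers 13 had a positive difference, with a median of 0.20. Albumin (ALB) and alpha-fetoprotein (AFP) stood at means of 12.94 and 13.02 in the control arrays and 13.03 and 13.10 in the mimic arrays. FOXA1, a liver transcription factor, had a difference of -0.36. Of 10 named markers of other cell types none was at an unadjusted p under 0.05 and their median level in an array was 4.58 to 4.90, below the median of all probe sets.

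Cell cycle genes had negative differences in 32 of 36 cases, with a median of -0.24, and 21 were lower in all 3 repeats, where 20.8% of all named genes were. Without the block 2 were lower and none higher, and with it 12 were lower and 1 higher. MYC, a growth-promoting transcription factor, stood at 6.54, 7.61 and 7.41 with the mimic and 7.88, 7.77 and 7.89 with the control, and repeat 1 gave most of the difference. CDK6, a kinase of the G1 phase, stood at 6.60, 6.64 and 6.77 against 7.36, 7.19 and 6.95. MKI67, a marker of cycling cells, stood at 9.52, 9.33 and 7.96 against 9.78, 9.72 and 8.93, lowest in repeat 3 in both groups. By repeat the median of the list was -0.27, -0.07 and -0.37.

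**Figure D4:**
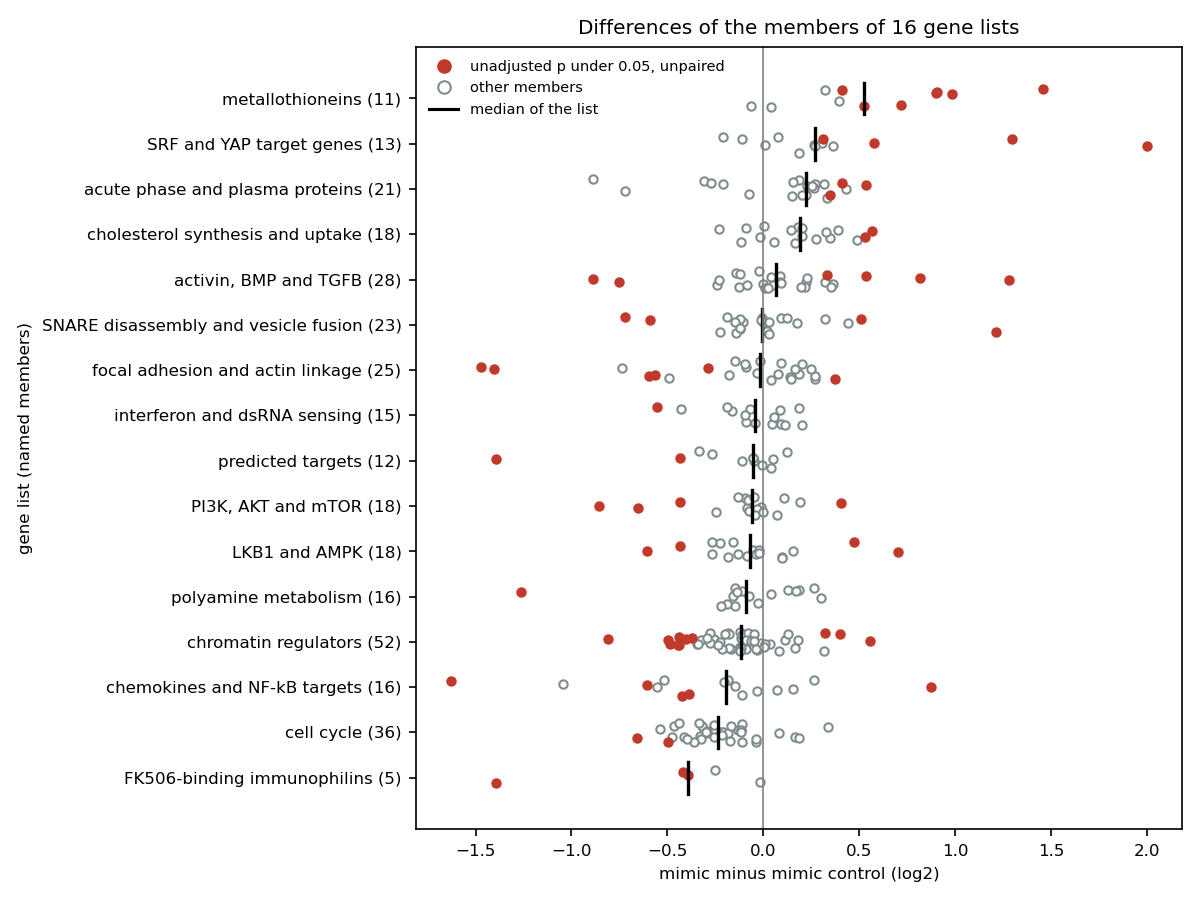
Mimic minus mimic control (horizontal axis, log2) for the named members of 16 gene lists, with filled points at an unadjusted p under 0.05 without the block and a bar at the median of each list. The metallothionein bar stands at 0.53 and that of the cell cycle genes at -0.24, while the bars of vesicle fusion and focal adhesion lie near 0 with single members far to either side.

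The genes at the locus of the miRNA and those that carry out its action passed no adjusted threshold in limma. The probe set of the MIR1908 precursor stood at 6.68, 7.09 and 6.99 with the mimic and 6.73, 7.12 and 7.12 with the control, a difference of -0.07 (standard error 0.16). The mimic is a duplex of mature length, and these arrays give no measure of its uptake. The host gene FADS1 stood at 8.62, 8.50 and 8.49 against 8.76, 8.55 and 8.25, with overlap in level, and FADS2 at 8.62, 8.67 and 8.31 against 8.41, 8.46 and 8.04, higher in each repeat by 0.21 to 0.27. FADS3, the third desaturase gene of the cluster, was higher by 0.46 with no overlap (standard error 0.14), at 6.78, 6.71 and 6.62 against 6.25, 6.20 and 6.27. MYRF, a neighbouring transcription factor gene, had a difference of -0.26. Of 9 named genes of miRNA processing and silencing none was at an unadjusted p under 0.05 without the block. The decapping enzyme DCP2 had a difference of 0.35 and the silencing scaffold TNRC6C one of 0.39. ChREBP, the glucose-responsive transcription factor encoded by MLXIPL, stood at 6.13, 6.48 and 6.27 against 6.34, 6.26 and 6.01. The reference genes PPIA, HPRT1 and SRP14 had differences of -0.11, -0.08 and -0.08, within their standard errors of 0.22, 0.34 and 0.14.

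The chromosomes of the genes were compared as a description, since the comparison did not use them. Of 1093 named genes of chromosome 19, 65 were lower and 17 higher at an unadjusted p under 0.05, or 5.95% and 1.56%. Chromosome 21 had 13 lower and 5 higher of 214, or 6.07% and 2.34%. On the other chromosomes 1.97% to 4.00% of genes were lower. Chromosome 19 carries CNN2, FKBP8, DDA1, CYP2B6, CREB3L3, ATP5F1D, RAB11B, CARM1, RAB8A, PIK3R2, ICAM1 and STK11, which were lower, and KLF2 and HAMP, which were higher. It carries 9 of the 37 named genes listed in hepatocytes (24.3%) and 7.28% of all named genes. Outside that list 57 of its 1084 genes were lower (5.26%). Its clustered zinc finger (ZNF) genes had a lower share, with 8 lower of 231 against 57 of 862 for its other genes. Without repeat 3 the shares lower were 4.12% on chromosome 19, 4.21% on chromosome 21 and 2.32% over all named genes. Chromosome 19 is dense in genes with promoters rich in G and C. In 4 classes of about equal size by promoter GC content, over 9792 of 12019 protein-coding genes with a promoter sequence in RefSeq, the share lower was 3.36%, 3.18%, 2.67% and 4.06% from the lowest to the highest class. Genes whose promoter held the complement of the seed (CCCCGCC, either strand) were lower in 3.56% of cases and the others in 3.12%. This complement stood in the promoters of 4436 of these 9792 genes, and in 31.2% of all 27305 promoters from RefSeq.

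**Figure D5:**
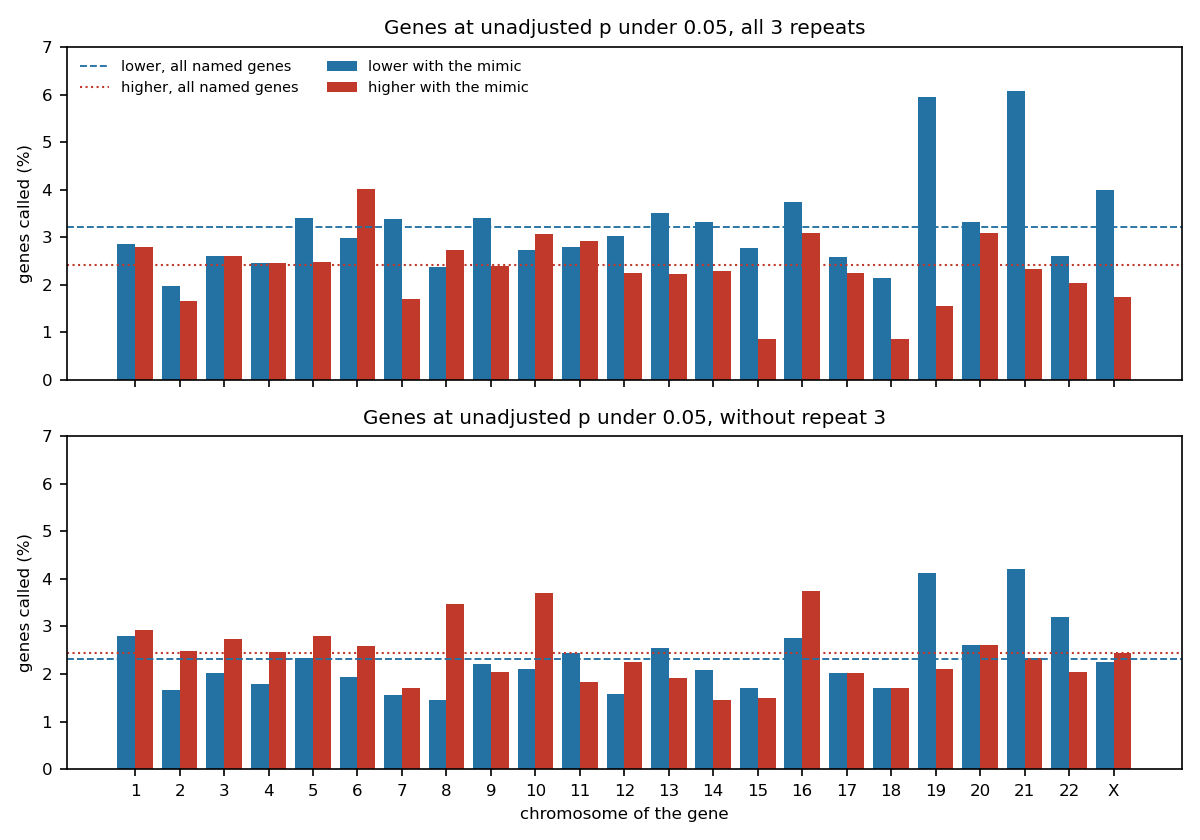
Share of the named genes of each chromosome (vertical axis, percent) that were lower or higher with the mimic at an unadjusted p under 0.05, with all 3 repeats above and without repeat 3 below, and dashed and dotted lines at the shares over all named genes. Chromosomes 19 and 21 have the tallest bars for lower genes in both panels.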

How the data were processed

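Total RNA of HuH-7 cells was hybridised to Affymetrix HuGene-2_0-st arrays, and the authors deposited log2 values made with Affymetrix Expression Console, while the labels and methods name no version, background correction or normalization for it. The deposited log2 values were used as they stand, without a filter. Probe sets were named from the platform annotation and, where it gave none, from the study's own tables (among them ILK, FKBP8, WIPF3 and CYP2B6). Of several probe sets of a gene the one with the highest mean over the 12 arrays was taken. limma 3.58.1 (R 4.3.3) was fitted to all 12 arrays as 4 groups, without and with the repeat number as a block, and p-values were adjusted by Benjamini-Hochberg over 53617 probe sets, with a threshold of 0.05. Differences are mimic minus mimic control, and standard errors are those of the fit without the block unless stated. The median standard error of a difference was 0.20 without the block and 0.17 with it, a precision set by 3 arrays per group.

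The series names 3 distinct occasions as the repeats. Same-numbered arrays deviated together from their group means (median correlation 0.24 over 18 pairs of arrays, against -0.141 over 36 pairs of different number), and the mimic and control arrays of a number correlated at 0.316, 0.189 and 0.439. Named were all probe sets past the adjusted threshold without the block, up to 12 named ones per direction with it, the largest differences among groups that did not overlap, and up to 4 members of each list, with the listed hepatocyte genes. Members and lists were chosen with earlier results of these data known. Counts of list members are descriptions, with no test of a list, and a few members that the naming rule gives are not reported here. The scripts were tested on simulated data. Promoters and miRNAs are from RefSeq (GRCh38.p14), promoters running from 250 bases before to 50 after a start.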

Additional observations from a re-analysis of the deposited data

How the results depend on the processing

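The count past the adjusted threshold in limma moved with nearly every setting. Without the block it was 8, and it became 24 with the replicate block, 0 on only the 6 arrays of the comparison, 4 with a common median, 26 without dim probe sets, 14 with a trend and robust prior, 23 on probe sets with 1 symbol and 26 with array weights. The methods' t-test left 0 after Benjamini-Hochberg adjustment and 2166 at an unadjusted p under 0.05. Leaving out 1 repeat or 1 array gave 0 to 2. With the block the count was 24, and it became 8 with no block, 0 on the 6 arrays, 40 after quantile normalization, 104 without dim probe sets, 111 with a trend and robust prior, 100 on probe sets with 1 symbol and 0 without any 1 repeat.

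At an unadjusted p under 0.05 the 2474 probe sets without the block (1292 lower, 1182 higher) became 4154 with the replicate block (2283 and 1871), 1500 without dim probe sets (845 and 655), 1038 on probe sets with 1 symbol (578 and 460) and 3934 with array weights (1980 and 1954). With the block, the fit on probe sets with 1 symbol gave 1970 (1188 and 782). Dim probe sets and those without a symbol leave fewer to test. For the other settings the cause was not tested. Of the settings chosen after seeing the data, the mimic against both inhibitor arms gave 2352 lower without the block and 3804 with it, and the mimic control against them 1948 and 2976. At the adjusted threshold the mimic against these arms gave 10 and 22, and the mimic control 11 and 25. List members at an unadjusted p under 0.05 numbered 36 lower and 30 higher without the block and 56 and 46 with the replicate block. The median of the insulin and mTOR list was -0.0461 over all probe sets of its genes. Without replicate 3, 4.12% of chromosome 19 genes were lower, 2.58% in the highest and 2.52% in the lowest promoter GC class.

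Genes with differences near 0 changed sign. Leaving out a repeat or an array without the block moved FADS1 between -0.1144 and 0.1357, PPIA between -0.2821 and 0.1296, HPRT1 between -0.3594 and 0.3183, SRP14 between -0.192 and 0.0338, MIR1908 between -0.1976 and 0.0528, MLXIPL between -0.0039 and 0.2403, LIMS1 between -0.0892 and 0.1649 and EGR1 between -0.0843 and 0.5751. With array weights FADS1 was at -0.0065, PPIA at 0.0228, HPRT1 at 0.0002 and SRP14 at 0.019. With the block, FADS1 ranged from -0.0896 to 0.0949, PPIA from -0.2517 to 0.0137 and HPRT1 from -0.2192 to 0.0438. Over 102 probe sets named in the report and 2848 refits of their values, 2619 kept direction and side of the adjusted threshold, 123 no longer passed it, 81 newly passed it and 25, all of the 8 genes given here, changed sign.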
